A study of Mus musculus with 18 samples.

Results

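The perilipins and their companion droplet proteins were followed in brown adipocytes differentiated from BMC cells, which are immortalised brown preadipocytes of the mouse. The 8 genes Plin1, Plin2, Plin3, Plin4, Plin5, Cidec, Fitm2 and Bscl2 were taken by gene name from a table of 45706 genes, each name matched 1 row, and all 8 passed the filter on low counts. Total RNA came from 18 libraries in 3 groups of 6, the uninduced cells (0 h) and cells sampled 4 h and 24 h after stimulation with 1 µM norepinephrine on day 7, each with replicate numbers 1 to 6 and all in batch 1. Every group had been differentiated in the same way, first with dexamethasone at 1 µM, isobutylmethylxanthine at 0.5 mM, indomethacin at 0.125 mM, triiodothyronine at 1 nM and insulin at 20 nM, then with insulin and triiodothyronine alone. All libraries came from the same line, and the labels do not say whether replicates were separate cultures, so p-values measure the spread between libraries, which may be technical.

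Fat is stored in lipid droplets, whose phospholipid monolayer is covered by proteins. Perilipins coat this surface and control the access of lipases. In adipocytes perilipin 1 binds the lipase activator ABHD5 and lets go of it when protein kinase A phosphorylates perilipin 1 after adrenergic stimulation. Other proteins shape the droplets: seipin and the FIT proteins act in the endoplasmic reticulum where droplets form, and the CIDE proteins make droplets exchange lipid and grow.

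Over all genes, libraries with the same replicate number at different times, and libraries with numbers 3 apart, were alike whatever their labelled time. The numbers are therefore described here as 3 sets of 6 libraries, numbers 3 and 6, 2 and 5, and 1 and 4. The sets were put together in an earlier analysis of the same libraries from that likeness, so a difference between sets is a description and no independent evidence, and no label says what the sets are. Whether the labelled times belong to these libraries could not be checked from the files, so every value given for 0 h, 4 h or 24 h is that of the libraries labelled so. Expected counts per library totalled between 7010742 and 26501223. The lowest total belonged to 24 h replicate 5, in which 41.5% of counts came from the noncoding genes Yam1 and Gm26917, against 6.78% to 10.6% in the other 17. Leaving it out changed 0 of the members' calls, and Plin1 in numbers 2 and 5 had 108.5 ± 7.74 CPM (counts scaled to the library's TMM-scaled total) without it (SD, n = 5) and 108 ± 6.96 CPM with it (n = 6). Of the defining markers, Adipoq had 418 to 876 CPM and Ucp1 1.08 to 18 CPM, while the macrophage marker Adgre1 and the endothelial marker Cdh5 were at 0 in all 18 libraries.

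Levels of different genes were compared roughly, by CPM per kilobase of exon. The length joins the exons of all annotated transcripts of a gene, 1 for Fitm2 and 10 for Bscl2. It can exceed that of the transcripts expressed, so the order of genes may partly reflect annotation. By this measure Plin4 and Cidec had the highest means over all 18 libraries, with 83.8 ± 13 and 83.2 ± 15.1 (SD, n = 18). Plin1 followed with 47.5 ± 25.6, then Fitm2 with 36.4 ± 6.83 and Plin2 with 30.5 ± 5.26. Plin3 had 10.5 ± 0.845 and Bscl2 10.2 ± 1.68 CPM per kilobase, and Plin5 was lowest with 1.40 ± 0.455. These spreads span sets with different means, and the order changed with the set. Plin4 and Cidec had 98.6 ± 1.13 and 63.8 ± 4.95 CPM per kilobase in numbers 3 and 6, 83.8 ± 6.18 and 94.8 ± 6.94 in numbers 2 and 5, and 68.9 ± 2.62 and 90.9 ± 3.82 in numbers 1 and 4 (SD, n = 6 each). Plin1 had 37.8 ± 2.91, 23.3 ± 1.5 and 81.3 ± 4.42 in the same order of sets, and so lay above Plin4 in numbers 1 and 4. Fitm2 lay above Plin2 in each set, with 28.4 ± 2.43, 43.0 ± 4.25 and 37.6 ± 1.91 against 24.1 ± 0.935, 35.9 ± 2.59 and 31.4 ± 1.16. Plin3 lay above Bscl2 in numbers 3 and 6 (11.1 ± 0.559 and 9.04 ± 0.477) and below it in numbers 1 and 4 (10.7 ± 0.761 and 12.4 ± 0.453), while in numbers 2 and 5 their spreads touched (9.77 ± 0.609 and 9.13 ± 0.554). The expected count of Plin5 ran from 4 to 100 per library, and those of the other members from 123 to 15214, so Plin5 values carry the most counting error.

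The question the series was designed for is what changes after norepinephrine starts lipolysis. Across the labelled times none of the 8 genes differed beyond the spread between the libraries labelled alike. Plin1, the main droplet coat of adipocytes, had a lowest, median and highest level of 101, 179 and 385 CPM at 0 h. At 4 h the same 3 values were 105, 180.2 and 392 CPM, and at 24 h they were 103, 168 and 394 CPM. The groups overlapped over nearly their whole range.

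Plin2, a coat protein of many cell types that is known to be raised by fatty acids, had 83.1, 108 and 127 CPM at 0 h, 83.5, 114 and 141 CPM at 4 h, and 79.7, 109 and 132 CPM at 24 h as lowest, median and highest level. Plin5, which in oxidative tissues is known to link droplets to mitochondria, had 1.62, 3.03 and 4.18 CPM at 0 h, 1.95, 3.04 and 3.71 CPM at 4 h, and 1.33, 2.71 and 4.28 CPM at 24 h. Both genes again overlapped throughout. Of the 14788 genes tested, 0% were called in any of the 3 comparisons by edgeR's quasi-likelihood test at a Benjamini-Hochberg adjusted p under 0.05, so the 0 of 8 members called equals the background. At an unadjusted p under 0.05 stood 1.17% of genes at 4 h against 0 h, 1.07% at 24 h against 0 h and 0.926% at 24 h against 4 h, and 0 of the 8 members. DESeq2 and limma-voom also called 0 members and 0 genes in each comparison. No member had groups without overlap, against a background of 0.0676%, 0.0406% and 0% of genes in the same order.

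The fold changes were small and their intervals wide. At 4 h against 0 h the members' log2 fold changes ran from -0.02 (Plin4) to 0.07 (Plin2) with a median of 0.04, beside a median of 0.01 over all genes. At 24 h against 0 h they ran from -0.05 (Fitm2) to 0.07 (Bscl2), and at 24 h against 4 h from -0.11 (Cidec) to 0.03 (Bscl2), with medians of -0.02 and -0.05. For Plin1 the 95% interval at 4 h against 0 h was -0.85 to 0.98 on the log2 scale, so changes within it are not excluded by this model. A call after adjustment over all genes asks for more than an interval that leaves out 0. With replicate number added to the model as a block, the interval of Plin1 narrowed to -0.05 to 0.13 at 4 h and -0.12 to 0.06 at 24 h against 0 h. The blocked intervals for Plin2 were -0.02 to 0.14 and -0.07 to 0.10, and for Plin5 -0.31 to 0.24 and -0.34 to 0.22. The blocked model called 0 of 8 members as well, with 0%, 0.00676% and 0% of all genes called in the 3 comparisons. The 1 gene behind the middle share was Il1rl1, named after its values were seen, at log2 0.82 in 24 h against 0 h (edgeR adjusted p = 0.00282). With the block, 9.88% of genes had an unadjusted edgeR p under 0.05 at 4 h against 0 h. At 24 h the share was 7.81% against 0 h and 5.12% against 4 h. Among the members this held only for Cidec at 24 h against 4 h.

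**Figure D1:**
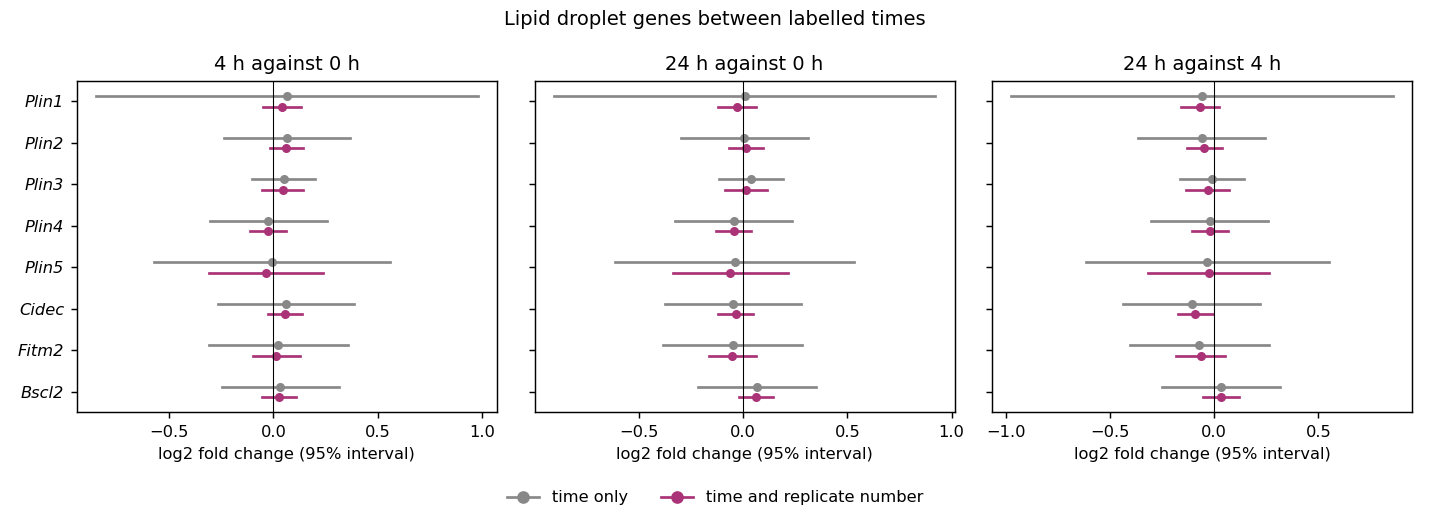
Log2 fold changes of the 8 genes (rows) for 4 h against 0 h, 24 h against 0 h and 24 h against 4 h (panels), as points with 95% intervals, from the model with time alone (grey) and with time and replicate number (purple). All intervals of time alone cover 0, and the blocked intervals are narrower, with Cidec at 24 h against 4 h the one that ends below 0.

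Within replicate numbers the directions were mixed. Cidec, the CIDE protein known from white fat to enlarge droplets, had the smallest blocked p among the 24 member tests, 0.0375 before and 0.921 after edgeR's adjustment, for 24 h against 4 h. Its blocked log2 fold change was -0.09 (95% interval -0.17 to -0.01), and it was lower at 24 h in 5 of 6 numbers. Bscl2, which encodes seipin, was higher in 5 of 6 numbers both at 4 h and at 24 h against 0 h, with blocked log2 fold changes of 0.03 and 0.06 that did not pass (edgeR adjusted p = 0.863 and 0.755). Whether a time difference itself varied between the sets was tested by an interaction term. It passed for 0 of 8 members (lowest unadjusted p 0.269, for Fitm2, edgeR adjusted p = 1.00) and for 0% of all genes, 2.81% of which had an unadjusted p under 0.05.

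Between the sets of replicate numbers the same genes stood far apart, in different orders. The set accounted for 98.6% of the variance of log2 CPM of Plin1 over the 18 libraries and the labelled time for 0.151%. For Plin2, Plin4, Bscl2, Cidec, Fitm2 and Plin5 the set's share was 92.5%, 91.0%, 90.8%, 89.6%, 83.8% and 81.6%. Plin3 was the exception with 49.4%, below the median of 62.7% over all genes tested. The share of time lay between 0.151% and 2.88% in the 8 genes, beside a median of 3.78% over all genes. In bulk RNA, fewer cells of a type and less RNA per cell cannot be told apart.

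**Figure D2:**
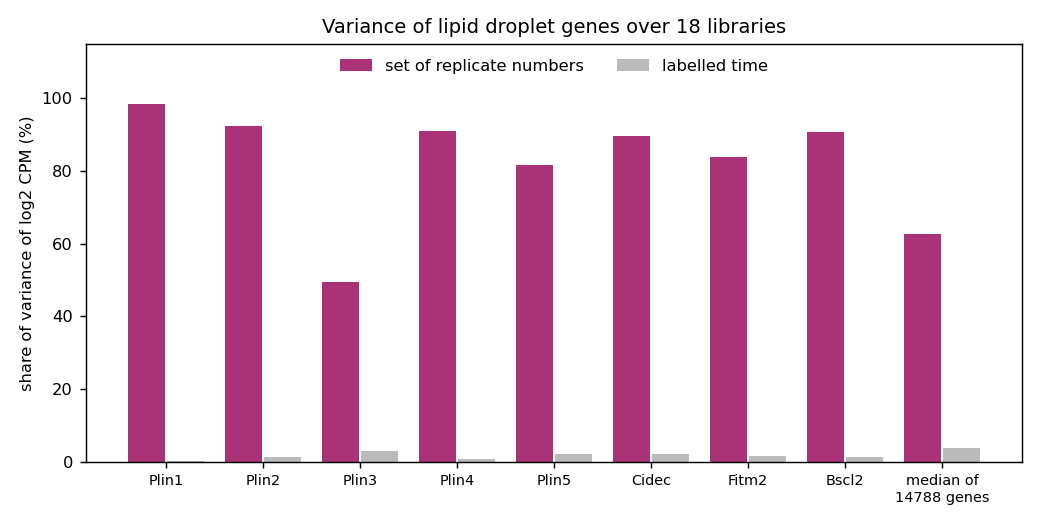
Share of the variance of log2 CPM over 18 libraries (y axis, %) that goes with the set of replicate numbers (purple) and with the labelled time (grey), for each gene and as the median of 14788 genes tested. The set's share is 98.6% for Plin1 and 49.4% for Plin3.

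Shares of called genes were high everywhere, so a call between sets is no mark of droplet genes. For numbers 3 and 6 against 2 and 5, edgeR called 57.1% of 14788 genes and 7 of the 8 members. Of these 4 were higher (28.6% of all genes) and 3 lower (28.5%). For numbers 3 and 6 against 1 and 4 it called 59.7% of genes and 7 members, 1 higher (30.2% of all genes) and 6 lower (29.5%). For numbers 2 and 5 against 1 and 4 it called 59.5% of genes and 7 members, 3 higher (29.6% of all genes) and 4 lower (29.9%). Groups did not overlap for 6 of 8 members against 29.8% of all genes, 7 of 8 against 38.6% and 3 of 8 against 35.3%, in the same order of comparisons. The members' median log2 fold changes were 0.10, -0.43 and -0.04, and those of all genes 0.00 in each. Scaled by library totals alone, Plin2, Cidec and Fitm2 were not called in 3 and 6 against 2 and 5. Of the members called, Plin1 and Plin4 were then the only 2 left in 3 and 6 against 1 and 4, and Plin1, Plin5 and Bscl2 the only 3 left in 2 and 5 against 1 and 4.

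Markers of other cell states moved with the sets. The summed CPM of 10 preadipocyte and fibroblast markers was 1605 to 1996 in numbers 3 and 6, 1070 to 1537 in numbers 2 and 5 and 831 to 968 in numbers 1 and 4. That of 4 smooth muscle markers was 58.9 to 81.5, 28.0 to 53.0 and 23.0 to 26.6 in the same order. The 7 mature adipocyte markers summed to 7012 to 8559, 8257 to 10167 and 9033 to 9545, and the 7 brown adipocyte markers to 149.9 to 173, 149 to 173 and 184 to 204. The 4 skeletal muscle markers summed to 0.486 to 1.19, 2.13 to 2.99 and 3.37 to 4.20, nearly all from Acta1. The other sums also rest on few genes, Col1a1 and Col3a1 for the fibroblast list and Acta2 for smooth muscle among them. The smooth muscle marker Myh11 did not follow its sum, with 1.13 ± 0.242, 1.36 ± 0.380 and 1.53 ± 0.379 CPM in the same order. Cnn1 had at most 0.183 CPM in any library. Ppargc1a made up most of the brown sum, with means of 131, 113 and 132 CPM, while Ucp1 had 1.81, 10.5 and 15.8 and Cox8b 4.78, 2.78 and 1.90. Lpl and Fabp4 made up most of the mature sum, while Adipoq (773, 594 and 443) and Cfd (1225, 555 and 469) were highest in numbers 3 and 6. Macrophage markers summed to at most 4.23, endothelial markers to 0.874 and hepatocyte markers to 0.855 CPM in any library. The part of these in the members' differences was not tested. Myod1, Adgre1 and Cdh5, which define skeletal muscle, macrophages and endothelium, were at 0 in every library.

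**Figure D3:**
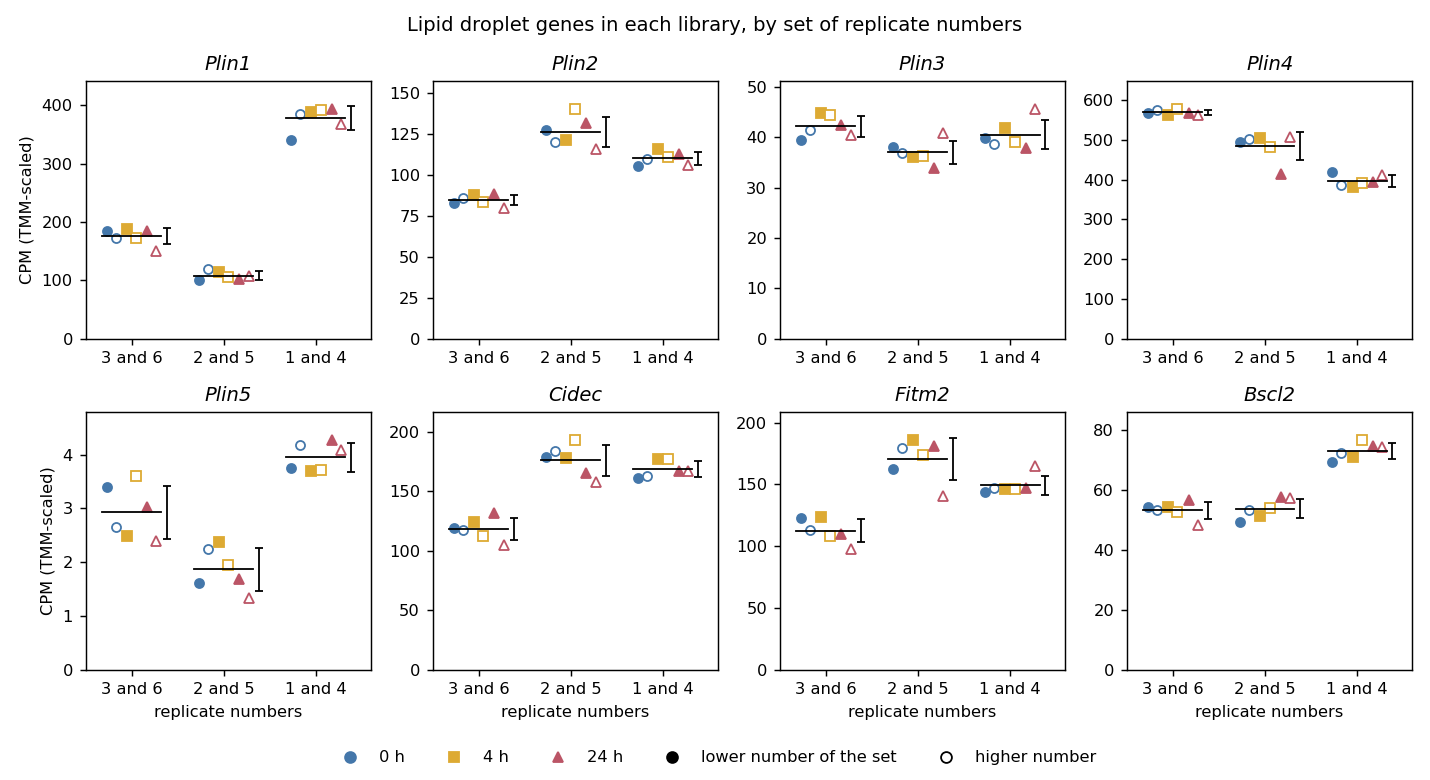
TMM-scaled CPM (y axis) of the 8 genes in each of the 18 libraries, by set of replicate numbers (x axis), with shape and colour for the labelled time, filled symbols for the lower number of a set, a line at the mean and a bar for its SD (n = 6). Symbols of the 3 times lie together within a set, and the order of the sets differs between Plin1, Plin2 and Plin4.

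Plin1 (chromosome 7, 79720218 to 79732903, mm10) differed most of the 8. It had 151, 179 and 188 CPM as lowest, median and highest level in numbers 3 and 6, 101, 106 and 119 CPM in numbers 2 and 5, and 341, 387 and 394 CPM in numbers 1 and 4. The 3 sets did not overlap, and numbers 1 and 4 lay highest. Numbers 2 and 5 were lower than 1 and 4, at log2 -1.81 (SE 0.05, edgeR adjusted p = 3.51e-20), and numbers 3 and 6 at -1.11 (SE 0.05, adjusted p = 2.64e-16). Numbers 3 and 6 were higher than 2 and 5, at 0.70 (SE 0.05, adjusted p = 8.92e-12).

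Plin5 had the same order of sets at a far lower level. Its lowest, median and highest levels were 2.40, 2.84 and 3.60 CPM in numbers 3 and 6, 1.33, 1.82 and 2.38 CPM in numbers 2 and 5, and 3.69, 3.92 and 4.28 CPM in numbers 1 and 4. The gaps between sets were narrow beside the spread within them. The difference on the log2 scale was -1.04 (SE 0.14, edgeR adjusted p = 2.22e-07) for numbers 2 and 5 against 1 and 4, -0.45 (SE 0.12, adjusted p = 0.00211) for 3 and 6 against 1 and 4, and 0.59 (SE 0.14, adjusted p = 0.000792) for 3 and 6 against 2 and 5. In fits of a single time the smaller differences were not always called. The same held for contrasts among numbers 1 to 3 or among 4 to 6, taken from a model of all 18 libraries. The sign was kept in each.

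Plin4, a perilipin of white fat and muscle, stands next to Plin5 on chromosome 17 on the same strand, 1797 bases apart with 0 genes between them (Plin4 at 56100591 to 56109803, Plin5 at 56111601 to 56117596, mm10). Its order of sets was another. Plin4 had 563, 568 and 579 CPM as lowest, median and highest level in numbers 3 and 6, 414, 499 and 508 CPM in numbers 2 and 5, and 383, 393 and 420.1 CPM in numbers 1 and 4. Numbers 3 and 6 overlapped neither other set, while 1 library of numbers 2 and 5 fell inside the range of 1 and 4. Plin4 was higher by log2 0.52 (SE 0.04, edgeR adjusted p = 3.33e-11) in numbers 3 and 6 and by 0.28 (SE 0.04, adjusted p = 2.42e-06) in numbers 2 and 5, both against 1 and 4, and by 0.24 (SE 0.04, adjusted p = 2.93e-05) in 3 and 6 against 2 and 5. The ratio of Plin5 to Plin4 counts within a library, which no scaling touches, had medians of 0.00497, 0.00407 and 0.00977 in numbers 3 and 6, 2 and 5, and 1 and 4. The expected counts of Plin4 carry 17 exon bases shared with Hdgfl2 on the other strand.

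Plin1 and Plin5 are shown by the stretch before their start, as 2 genes with the same order of sets. The bases are from RefSeq for GRCm38.p6, 5′ to 3′, up to 250 bases upstream and cut where any annotated transcript of the gene begins, and capitals mark a nuclear receptor core motif (AGGTCA) or a CCAAT box on either strand.
Plin1 (chr7:79732905-79733026, minus strand): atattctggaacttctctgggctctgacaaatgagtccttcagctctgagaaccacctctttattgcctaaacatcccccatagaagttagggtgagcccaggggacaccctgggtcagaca
Plin5 (chr17:56117607-56117798, minus strand): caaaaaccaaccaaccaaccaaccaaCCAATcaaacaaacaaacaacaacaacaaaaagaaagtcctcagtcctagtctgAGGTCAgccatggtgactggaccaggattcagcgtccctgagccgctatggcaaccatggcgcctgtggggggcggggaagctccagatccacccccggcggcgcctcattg

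The Plin1 stretch held no match, and that of Plin5 held 1 core motif and 1 CCAAT box. In the full windows of 250 bases, AGGTCA on either strand was found in 14% of 32851 promoters and CCAAT in 33.8%. The direct repeat 1 element of PPAR receptors (the core motif repeated with 1 free base between, so each match also holds AGGTCA), the cyclic AMP response element TGACGTCA and the E-box CACGTG were in 0.0335%, 1.55% and 6.02% of promoters and in 0 of the 12 windows of the 8 genes. AGGTCA was in 3 of these 12 windows (of Plin2, Plin5 and Bscl2). CCAAT was in 5 of the 12 (of Plin2, Plin3, Plin4, Plin5 and Bscl2). These are letter matches only, and binding was not measured.

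Plin2, Cidec and Fitm2 formed another group, lowest in numbers 3 and 6. Plin2 (chromosome 4, 86648386 to 86670060) had 79.7, 84.7 and 88.5 CPM as lowest, median and highest level in numbers 3 and 6, 116, 125 and 141 CPM in numbers 2 and 5, and 106, 110.4 and 116 CPM in numbers 1 and 4. Numbers 3 and 6 lay below every other library, and the other two sets overlapped by a narrow margin. The log2 difference came to -0.58 (SE 0.04, edgeR adjusted p = 1.32e-12) for 3 and 6 against 2 and 5, -0.38 (SE 0.04, adjusted p = 3.38e-09) for 3 and 6 against 1 and 4, and 0.20 (SE 0.04, adjusted p = 7.93e-05) for 2 and 5 against 1 and 4.

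Cidec (chromosome 6, 113424634 to 113435760) had 105, 118 and 131 CPM in numbers 3 and 6, 157, 178 and 193 CPM in numbers 2 and 5, and 161, 167 and 178 CPM in numbers 1 and 4, again as lowest, median and highest level. Only numbers 3 and 6 stood apart. Cidec was lower there, at log2 -0.57 (SE 0.05, edgeR adjusted p = 3.76e-11) against 2 and 5 and -0.51 (SE 0.05, adjusted p = 2.53e-10) against 1 and 4. For 2 and 5 against 1 and 4 it was 0.07 with a 95% interval of -0.03 to 0.16 (adjusted p = 0.22). It was called within 0 h alone (0.16, adjusted p = 0.00332), and with library totals and 24 h replicate 5 left out (0.13, adjusted p = 0.0357), a setting chosen after the data were seen.

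Fitm2 encodes an endoplasmic reticulum protein needed for droplets to bud (chromosome 2, 163466379 to 163472629). It had 98.1, 112 and 123 CPM in numbers 3 and 6, 141, 177 and 186 CPM in numbers 2 and 5, and 144, 147 and 165 CPM in numbers 1 and 4. Numbers 3 and 6 were again below all other libraries. The log2 fold changes were -0.61 (SE 0.06, edgeR adjusted p = 2.13e-08) for 3 and 6 against 2 and 5 and -0.40 (SE 0.06, adjusted p = 5.03e-06) for 3 and 6 against 1 and 4. That of 2 and 5 against 1 and 4 was 0.21 (SE 0.06, adjusted p = 0.00522). This call was lost in the contrast of number 5 against 4 (0.13, adjusted p = 0.178) and within 24 h (0.07, adjusted p = 0.688). Its exons share 227 bases with the antisense gene 2310001K24Rik. The kit keeps the strand, but the strand setting of the counting is not given in the sources used here.

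Within a library the proportions of these 3 genes varied less than that of Plin1 to Plin2. The ratio of Plin2 to Cidec counts ran from 0.673 to 0.759 in numbers 3 and 6, from 0.654 to 0.7997 in numbers 2 and 5 and from 0.627 to 0.677 in numbers 1 and 4. The ratio of Fitm2 to Cidec counts ran from 0.836 to 1.03, from 0.893 to 1.10 and from 0.825 to 0.984 in the same order of sets. By contrast the ratio of Plin1 to Plin2 counts ran from 1.89 to 2.22 in numbers 3 and 6, from 0.748 to 0.990 in numbers 2 and 5 and from 3.22 to 3.52 in numbers 1 and 4, without overlap. Grouped by time, the medians of that ratio were 2.12, 2.10 and 1.99 at 0 h, 4 h and 24 h. The stretches before Plin2, Cidec and Fitm2 are shown as the 3 genes that were lowest in the same set, with the same source and the same capitals.
Plin2 (chr4:86670218-86670309, minus strand): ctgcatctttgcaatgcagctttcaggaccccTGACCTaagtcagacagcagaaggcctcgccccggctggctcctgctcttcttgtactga
Cidec (chr6:113435761-113436010, minus strand): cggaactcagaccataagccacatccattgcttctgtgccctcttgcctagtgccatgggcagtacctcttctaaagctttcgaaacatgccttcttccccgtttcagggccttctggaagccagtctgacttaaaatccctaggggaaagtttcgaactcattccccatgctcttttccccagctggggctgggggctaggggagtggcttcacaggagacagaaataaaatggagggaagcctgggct
Fitm2 (chr2:163472630-163472879, minus strand): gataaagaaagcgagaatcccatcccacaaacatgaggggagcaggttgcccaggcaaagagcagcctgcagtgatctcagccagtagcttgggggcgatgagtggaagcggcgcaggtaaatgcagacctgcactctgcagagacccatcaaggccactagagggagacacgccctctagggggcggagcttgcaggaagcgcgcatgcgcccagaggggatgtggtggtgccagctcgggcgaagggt

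The Plin2 stretch held the core motif on the other strand (TGACCT), and those of Cidec and Fitm2 held no match. The Fitm2 stretch may also overlap the antisense gene 2310001K24Rik, whose exons share 227 bases with those of Fitm2, but this was not computed.

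Bscl2 (chromosome 19, 8837467 to 8848683) stood apart in numbers 1 and 4. Its levels were 48.2, 53.9 and 56.6 CPM in numbers 3 and 6, 49.4, 53.7 and 57.7 CPM in numbers 2 and 5, and 69.6, 73.5 and 76.8 CPM in numbers 1 and 4. On the log2 scale it differed by -0.46 (SE 0.04, edgeR adjusted p = 1.75e-10) for 3 and 6 and -0.45 (SE 0.04, adjusted p = 6.05e-10) for 2 and 5, both against 1 and 4. Between 3 and 6 and 2 and 5 it was -0.01 with a 95% interval of -0.10 to 0.08 (adjusted p = 0.88). The exons of Bscl2 share 398 bases with Gng3 on the other strand and 239 bases with AC129217.1 on the same strand, so its counts may hold reads of these genes.

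Plin3, the coat protein of small and new droplets in most cells, varied least (chromosome 17, 56277476 to 56292873). Its levels were 39.5, 41.9 and 44.7 CPM in numbers 3 and 6, 33.9, 36.6 and 40.8 CPM in numbers 2 and 5, and 37.9, 39.4 and 45.7 CPM in numbers 1 and 4. All sets overlapped. The difference on the log2 scale was 0.20 (SE 0.05, edgeR adjusted p = 0.000637) for 3 and 6 against 2 and 5 and 0.06 (SE 0.05, adjusted p = 0.232) for 3 and 6 against 1 and 4. For 2 and 5 against 1 and 4 it was -0.14 (SE 0.05, adjusted p = 0.0141), a call that was lost without 24 h replicate 2 (adjusted p = 0.0716). Without 24 h replicate 4 the log2 fold change of 3 and 6 against 1 and 4 was 0.10 and was called (adjusted p = 0.0453).

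The set differences were also computed among numbers 1 to 3 and among numbers 4 to 6. Both are contrasts of the blocked model of all 18 libraries and share its estimate of spread. The sets had been put together because libraries with numbers 3 apart were alike. Likeness between these contrasts is therefore built in and is no separate evidence. For Plin1, number 2 against 1 gave a log2 fold change of -1.82 and number 5 against 4 gave -1.79. Number 3 against 1 gave -1.01 and 6 against 4 gave -1.20, and number 3 against 2 gave 0.81 and 6 against 5 gave 0.58. Plin4 had 0.51 and 0.53 for 3 against 1 and 6 against 4. Cidec had -0.47 for 3 against 2 and -0.69 for 6 against 5. The sign was the same in both for all 8 genes in each comparison, except Bscl2 in 3 and 6 against 2 and 5 (0.06 and -0.09).

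**Figure D4:**
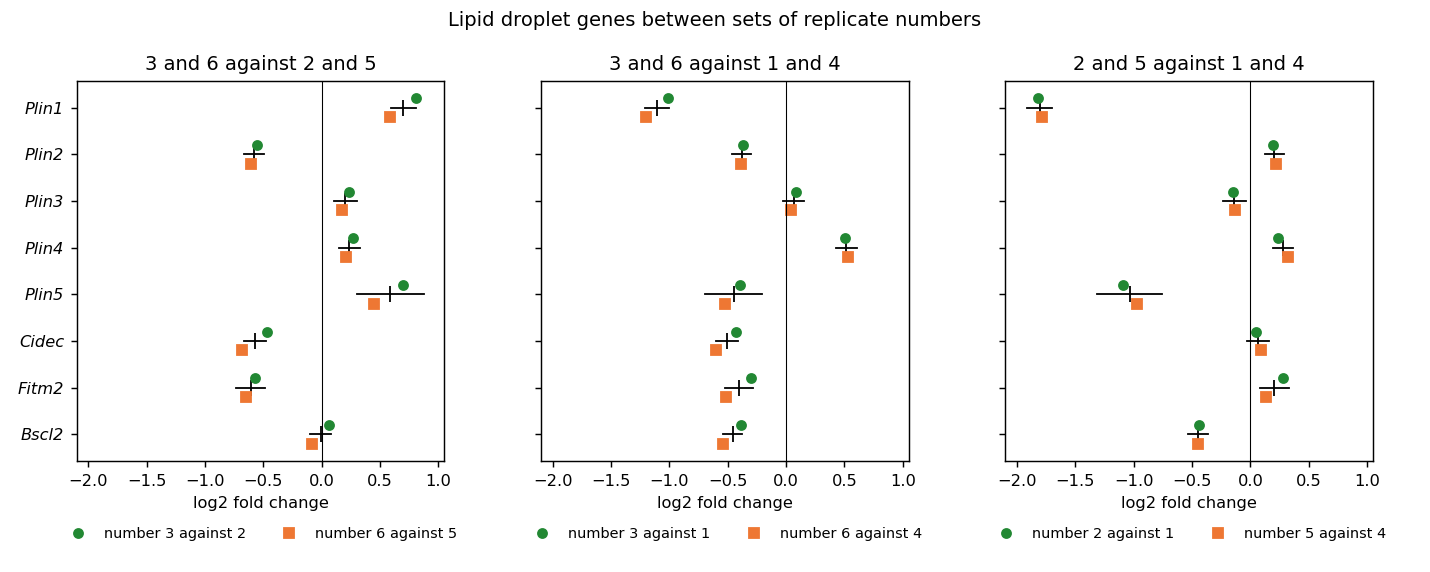
Log2 fold changes of the 8 genes (rows) between sets of replicate numbers (panels), with the set estimate over all 18 libraries as a tick with its 95% interval. Circles are contrasts among numbers 1 to 3 and squares among numbers 4 to 6, both from the blocked model of all 18 libraries. Plin1 lies at -1.82 and -1.79 in the right panel.

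The make-up of the perilipin transcripts thus differed between sets. Per kilobase of exon, Plin1 made up 21.8 ± 1.23% of the counts of the 5 perilipins in numbers 3 and 6, 15.1 ± 0.830% in numbers 2 and 5 and 41.9 ± 1.72% in numbers 1 and 4 (SD, n = 6 each). Plin4 made up 57.0 ± 1.36%, 54.5 ± 2.12% and 35.5 ± 1.79%, and Plin2 13.9 ± 0.312%, 23.4 ± 2.23% and 16.2 ± 0.454%, in the same order. By this joined exon length, Plin1 was thus the leading perilipin in numbers 1 and 4 and Plin4 in the other 12 libraries. The shares depend on that length, which may differ from that of the transcripts expressed. Plin3 held 5.07% to 6.94% and Plin5 0.409% to 1.04% in all 18 libraries.

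**Figure D5:**
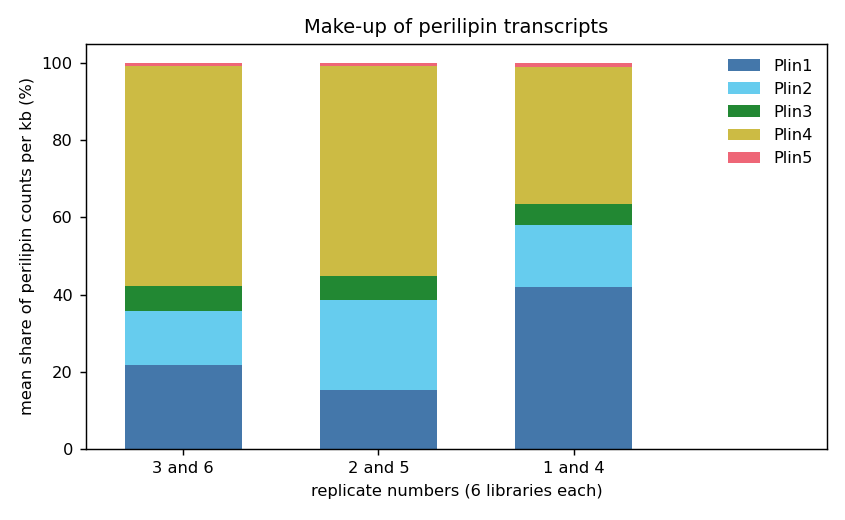
Mean share of each perilipin in the summed counts per kilobase of exon of the 5 perilipins (y axis, %), for the 3 sets of 6 libraries (x axis). Plin1 takes 21.8%, 15.1% and 41.9% in numbers 3 and 6, 2 and 5, and 1 and 4, and Plin4 57.0%, 54.5% and 35.5%.

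Around the coat proteins, 22 droplet partners were listed, of which 21 were tested. Across the times 0 passed in any comparison, with medians of 0.02, -0.03 and -0.03 for 4 h against 0 h, 24 h against 0 h and 24 h against 4 h. Between sets, 4 were higher and 7 lower in 3 and 6 against 2 and 5, 6 and 10 in 3 and 6 against 1 and 4, and 8 and 7 in 2 and 5 against 1 and 4, beside 57.1%, 59.7% and 59.5% of all genes called in either direction in these comparisons. The medians were -0.06, -0.10 and 0.03. The lipase Pnpla2, which starts triglyceride breakdown, had 484 ± 27.5 CPM in numbers 3 and 6, 751 ± 67.8 in numbers 2 and 5 and 338 ± 40.0 in numbers 1 and 4. It was higher in 2 and 5 than in 1 and 4 by log2 1.16 (SE 0.07, edgeR adjusted p = 1.18e-10).

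G0s2, the inhibitor of that lipase, had 129 ± 11.5 CPM in numbers 3 and 6, 27.3 ± 5.78 in numbers 2 and 5 and 322 ± 23.3 in numbers 1 and 4 (SD, n = 6 each). In 2 and 5 against 1 and 4 it was lower, at log2 -3.63 (SE 0.11, edgeR adjusted p = 2.21e-13). The order of its sets was that of Plin1. Cideb, another CIDE protein, and Clstn3, of which an adipocyte form is a droplet protein, were lower at log2 -1.70 and -1.22 in the same comparison and at -1.24 and -0.88 in 3 and 6 against 1 and 4. The count of Clstn3 is for the whole gene and does not separate that form. Cideb had only 0.332 to 3.86 CPM over all libraries, so its values carry much counting error. Cav1, the main caveolar protein, was lower in 3 and 6 against 2 and 5, at log2 -0.57. Hsd17b13, a droplet dehydrogenase, had 0.00714 ± 0.0175 CPM in numbers 3 and 6, 0.366 ± 0.114 in 2 and 5 and 0.514 ± 0.165 in 1 and 4, too few counts for a fold change.

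Of 12 genes of droplet assembly and triglyceride synthesis, 0 passed across the times, with medians of 0.01, -0.03 and -0.04 in the order given above. In 3 and 6 against 2 and 5, 6 were higher and 3 lower, beside 28.6% and 28.5% of all genes. In 3 and 6 against 1 and 4, 1 was higher and 8 lower, beside 30.2% and 29.5% of all genes. In 2 and 5 against 1 and 4, 1 was higher and 10 lower, beside 29.6% and 29.9%. The 3 comparisons had medians of 0.16, -0.46 and -0.65. Dgat2, which makes triglyceride from diacylglycerol, had 94.7 ± 10.9 CPM in numbers 3 and 6, 69.2 ± 5.05 in numbers 2 and 5 and 249 ± 9.76 in numbers 1 and 4. Agpat2 and Lpin1, enzymes of the steps before it, were lower in 2 and 5 against 1 and 4, at log2 -1.08 and -0.99. Acsl3, an acyl-CoA synthetase of new droplets, was lower in 3 and 6 against 1 and 4, at log2 -1.28. Ldaf1, the partner of seipin (Tmem159 in the table), was higher in 3 and 6 against 2 and 5 by 0.87 (edgeR adjusted p = 1.59e-06). Its level was only 1.66 to 5.20 CPM over all libraries, so it carries much counting error.

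Genes of perilipin turnover and of perilipin transcription also gave 0 calls across the times. Of the 5 turnover genes, 1 was higher and 3 lower in 3 and 6 against 2 and 5, 1 and 2 in 3 and 6 against 1 and 4, and 0 and 4 in 2 and 5 against 1 and 4. Of all genes 57.1%, 59.7% and 59.5% were called in these comparisons, which applies to the receptors below as well. Hspa8, the chaperone that hands perilipins to lysosomes, was higher in 3 and 6 against 2 and 5 by log2 0.50. Of the 10 nuclear receptors and cofactors, 2 were higher and 5 lower, 3 and 4, and 5 and 3 in the same comparisons. The medians were -0.08, -0.07 and -0.16 for turnover and -0.16, -0.07 and 0.20 for receptors and cofactors. Ppara, a fatty acid sensing receptor, had 43.0 ± 3.38 CPM in numbers 3 and 6, 29.9 ± 2.68 in numbers 2 and 5 and 22 ± 1.46 in numbers 1 and 4. Nr1h3, a sterol receptor, had 12.1 ± 0.566, 15.3 ± 0.857 and 20.0 ± 0.972 CPM in the same order of sets. Cebpa had the largest called change of this list in 2 and 5 against 1 and 4, at log2 0.62. In 3 and 6 against 2 and 5 it was Cebpb, at -0.63, with a wide spread in numbers 2 and 5 (96.3 ± 51.7 CPM).

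For each member the genes most like it were ranked by Pearson's correlation of log2 CPM over the 18 libraries, among 9030 genes with a mean log2 CPM of at least 3. The libraries share the 3 sets, so these values mainly describe the order of the sets. Map3k1, Usp2 and Parm1 were most like Plin1, with 0.996, 0.991 and 0.990. Slc25a51, Ghitm and Tmcc3 were most like Plin2 (0.978 to 0.976), Suox, Sh3bp4 and Stub1 most like Plin3 (0.895 to 0.854), and Pprc1, Svep1 and Dock9 most like Plin4 (0.957 to 0.953). Txndc15, Pfkm and Evi5l were most like Plin5 (0.954 to 0.942). Hadha, an enzyme of mitochondrial fatty acid oxidation, was first for Cidec (0.983), before Hspa9 and Atp5b. Lpl, lipoprotein lipase, was first for Fitm2 (0.969), before Slc16a1 and Hjurp, and Inpp5a first for Bscl2 (0.979), before Slc39a1 and Id3. Within sets, of 6 libraries each, Hadha had 0.886, 0.805 and 0.905 with Cidec in numbers 3 and 6, 2 and 5, and 1 and 4. Txndc15 had 0.887, 0.933 and 0.750 with Plin5, so high values within sets are not particular to Cidec. Others were low, such as Parm1 with Plin1 (0.230, 0.134 and 0.671) and Pprc1 with Plin4 (0.222, 0.488 and 0.131).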

How the data were processed

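The authors deposited 1 table of expected counts from salmon, per the labels. Build mm10 and the tools limma and edgeR appear in the submitters' processing notes. Which salmon version, annotation and strand option made the counts is not given in the sources used. Of 45706 identifiers 45143 were found in GENCODE M21, which gave positions and exon lengths. Expected counts were rounded, filtered with filterByExpr (minimum count 10, minimum total 15; 14788 genes kept) and scaled by TMM. Log2 CPM used a prior count of 2. Labelled times were tested with edgeR's quasi-likelihood F-test over all 18 libraries, sets with time in the model, adjusted by Benjamini-Hochberg over all genes at 0.05 (two-sided). Intervals are 95% intervals of the log2 fold change, with the spread between libraries as error, and are not the range of single libraries. Scripts were tested on simulated counts with 200 changed genes. In the test of time these counts held no set differences, so it does not show how well the time model finds changes in the real counts. Tools were DESeq2 1.42.0, limma 3.58.1 and edgeR 4.0.16 in R 4.3.3, and matplotlib 3.10.9.

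Deviations from group means correlated at 0.297 to 0.718 (median 0.590) between same-numbered libraries of different times (18 pairs, bound 0.1). Libraries with numbers 3 apart had 0.237 to 0.688 (median 0.569, 18 pairs), and other numbers -0.446 to 0.0178 (median -0.270, 72 pairs). The number was used as a block on this ground. These values do not tell pairing by number from likeness within a set, and no label ties the numbers to a culture or day. Members, sets and gene lists were chosen with earlier results of these data known. All members are named; of each list at most 4 genes per comparison, those with the largest change among the called ones, and of genes most like a member the leading 3. Alternatives were other scalings and tests, no filter, leaving out each library, the replicate block and fits within times. Contrasts among numbers 1 to 3 and among 4 to 6 came from the blocked model of all 18 libraries.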

Additional observations from a re-analysis of the deposited data

Results flagged for a closer look

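Of 48 groups of 6 libraries (each gene by time and by set), 2 held a library far from the others, and chance flags about 1 group in 20. Plin4 had 413.85 CPM in 24 h replicate 2, the lowest of numbers 2 and 5, while the other 5 libraries had 481.58 to 507.86 CPM. Fitm2 had 164.53 CPM in 24 h replicate 4, the highest of numbers 1 and 4, while the other 5 had 143.97 to 147.26 CPM. Neither cause was tested.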

How the results depend on the processing

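For the times, all 208 member values per comparison kept 0 calls, and 28, 38 and 33 of them changed sign around 0 for 4 h against 0 h, 24 h against 0 h and 24 h against 4 h. With the replicate block 0 of 8 members passed in each comparison, so the block changed no member's call. Limma-voom with the block and library weights called 0 members and, at 24 h against 0 h, 0.0609% of genes. For the sets, 231 of 240 values stayed on their side of the threshold in 3 and 6 against 2 and 5, 229 of 240 in 3 and 6 against 1 and 4, and 222 of 240 in 2 and 5 against 1 and 4, and 0 called values changed direction. Scaling by library totals alone left 4, 2 and 3 of 8 members called in these comparisons in place of 7 each, with 34.7%, 30.7% and 25.6% of all genes called and all-gene medians moved to 0.25, 0.17 and -0.09. With totals and 24 h replicate 5 left out, chosen after the data were seen, 7, 8 and 7 members were called, beside 57.0%, 63.4% and 56.8% of all genes. Within 24 h alone, with 6 libraries, 3 members were called in 2 and 5 against 1 and 4, beside 25% of all genes. Calls of Plin5 in 3 and 6 against 1 and 4 were lost within each time and in number 3 against 1 (edgeR adjusted p 0.0561). In 3 and 6 against 2 and 5 they were lost within 4 h, within 24 h and in number 6 against 5. Leaving out 1 library changed 2 member calls, both of Plin3. Plin5 is limited by depth, and a library of 7010742 counts gave it 4.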
